A study of Mus musculus with 6 samples.

Results

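The genes described here are 41 mouse genes of DNA replication and mitosis, chosen by their symbols from the 21741 distinct symbols of the count tables. They fall into 25 genes of the G1/S transition and of replication and 16 genes of G2 and mitosis (G2/M), and all 41 had enough counts to be tested. RNA was sequenced from 6 libraries of mouse primary cardiomyocytes, heart cells taken into culture. In 3 libraries the cells had received an adenovirus for ABHD11 (Adv-ABHD11, genotype given as ABHD11 overexpression). In the other 3 they had received the control adenovirus (Adv-NC, genotype given as WT). Every culture then spent 24 h in hypoxia, all libraries carried the same batch number, and normoxic or uninfected cells were not analysed here. The age of the animals, the number of cultures behind a group and the species and promoter of the ABHD11 insert are absent from the sources used here. The p-values therefore measure only the spread between these libraries, which may be technical.

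Before a cell copies its DNA, the ORC complex with CDC6 and CDT1 loads rings of the proteins MCM2 to MCM7 onto replication origins, and CDC45 and the GINS complex later turn the rings into active helicases. The genes for these proteins, for the polymerases and for deoxynucleotide supply are switched on late in G1 by E2F transcription factors, once cyclin D with CDK4 or CDK6 and cyclin E with CDK2 have phosphorylated the RB family. A later wave of genes for cyclins A and B, CDK1, the spindle and the checkpoint is switched on in G2 through the MuvB complex with B-MYB and FOXM1. Mammalian cardiomyocytes largely leave the cell cycle around birth, whereas fibroblasts and endothelial cells of a heart culture can go on dividing.

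The start regions of 5 members are shown because their letters differ between the sets. E2F sites and the cell cycle homology region (CHR) are textbook elements of the G1/S and of the G2/M wave. Each sequence runs 5′ to 3′ on the gene's own strand, from 250 bases before to 50 bases after the RefSeq start of the gene (GRCm38.p6), with capitals at E2F-type letters (the form TTCGCGC, the form TTCCCGC, the form TTGGCGC or the form TTGCCGC) and at CHR letters (TTTGAA), both strands searched. Mcm5 (chr8:75109259-75109558, plus strand) and Mcm6 (chr1:128359656-128359955, minus strand) encode helicase subunits. Top2a (chr11:99024140-99024439, minus strand) encodes DNA topoisomerase II alpha, Cdc20 (chr4:118437294-118437593, minus strand) an activator of the anaphase-promoting complex, and Cdk1 (chr10:69352863-69353162, minus strand) the mitotic kinase.
Mcm5: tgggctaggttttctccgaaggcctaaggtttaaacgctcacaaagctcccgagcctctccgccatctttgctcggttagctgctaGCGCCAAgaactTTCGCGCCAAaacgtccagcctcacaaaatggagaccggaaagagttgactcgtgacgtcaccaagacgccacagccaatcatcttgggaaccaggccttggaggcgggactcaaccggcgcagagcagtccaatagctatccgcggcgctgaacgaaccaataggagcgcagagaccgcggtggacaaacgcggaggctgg
Mcm6: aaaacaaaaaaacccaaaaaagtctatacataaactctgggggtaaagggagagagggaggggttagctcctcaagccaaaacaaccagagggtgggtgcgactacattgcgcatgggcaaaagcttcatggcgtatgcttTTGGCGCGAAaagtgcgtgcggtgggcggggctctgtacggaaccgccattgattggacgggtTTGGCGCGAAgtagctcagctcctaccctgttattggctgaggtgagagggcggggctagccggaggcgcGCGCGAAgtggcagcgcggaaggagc
Top2a: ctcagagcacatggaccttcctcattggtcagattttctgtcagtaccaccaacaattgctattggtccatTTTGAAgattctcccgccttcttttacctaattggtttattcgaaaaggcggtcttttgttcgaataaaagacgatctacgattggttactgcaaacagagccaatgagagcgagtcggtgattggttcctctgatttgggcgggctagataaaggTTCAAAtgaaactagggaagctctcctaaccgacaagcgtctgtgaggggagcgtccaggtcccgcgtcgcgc
Cdc20: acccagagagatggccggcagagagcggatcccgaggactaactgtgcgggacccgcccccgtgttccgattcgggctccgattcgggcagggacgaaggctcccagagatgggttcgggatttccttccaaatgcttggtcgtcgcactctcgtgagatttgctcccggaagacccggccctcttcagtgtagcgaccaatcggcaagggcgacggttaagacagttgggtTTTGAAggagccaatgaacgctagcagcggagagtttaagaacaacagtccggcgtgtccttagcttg
Cdk1: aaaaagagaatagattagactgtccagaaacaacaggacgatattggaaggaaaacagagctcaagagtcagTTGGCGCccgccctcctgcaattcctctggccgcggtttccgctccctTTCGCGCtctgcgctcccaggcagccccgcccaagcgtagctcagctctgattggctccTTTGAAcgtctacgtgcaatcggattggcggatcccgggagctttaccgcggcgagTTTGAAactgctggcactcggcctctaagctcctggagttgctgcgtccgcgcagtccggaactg

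Of the 25 G1/S and replication members, 19 had a start region in the RefSeq table, and of the 16 G2/M members 14 had one. Mcm4, Gins2, Pole, Ccne2, Ccnd1, Ccnd2, Ccna2 and Aurkb were not matched. E2F-type letters stood in 12 of the 19 G1/S start regions (63.2%) and in 4 of the 14 G2/M start regions (28.6%), against 9.69% of all 27025 start regions of the same length, and 17.2% of those of tested genes. CHR letters stood in 2 of the 19 G1/S start regions (10.5%) and in 11 of the 14 G2/M start regions (78.6%), against 18.1% of all and 11.8% of those of tested genes. The letters CCAAT, the box bound by NF-Y, were in 12 of 19 and 13 of 14 start regions, against 37.9% of all. E2F-type letters overlap themselves where both strands match, as in Mcm5 and Mcm6, and their form GCGCCAA can share bases with CCAAT. Cdk1 held both kinds of letters, with 2 E2F-type and 2 CHR matches. Within the G1/S set nearly all matched genes fell, and Ccnd2, the member that rose, was not matched. The E2F-type letters could therefore hardly sort these genes by their call. The start regions of Mcm2, Mcm10, Cdc45, Pcna, Tyms, E2f1 and Ccne1 held no E2F-type match, and all of these genes fell. Those of Pola1 and Cdk2 held 4 and 3 matches and neither gene passed the test, while the other G1/S genes with a match fell. A match is a string of letters in this window and not a measured binding site, and only the forms listed above were searched.

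The mouse gene Abhd11 and markers of the cell types in a heart culture were measured beside the 41 genes. Abhd11 was at 38.0, 42.5 and 36.2 CPM (counts per 1000000 library counts) in the Adv-ABHD11 libraries and at 31.5, 35.2 and 33.9 CPM in the Adv-NC libraries, a log2 fold change of 0.21 (SE 0.101, edgeR quasi-likelihood test, adjusted p = 0.0765) that did not pass, and the labels were taken as given. It passed with upper-quartile scaling, with library size only and after removal of length and GC trends. Library totals ran from 16291166 to 20336828 counts. The marker counts below stand beside a background of 29.9% higher and 29.5% lower among all tested genes. All 10 cardiomyocyte markers were detected and all 10 were higher with Adv-ABHD11, with a summed level of 29493 to 31127 CPM in these libraries, against 16915 to 18333 CPM with Adv-NC. Of 8 fibroblast markers 2 were higher and 4 lower, with sums of 10972 to 14741 CPM in Adv-ABHD11 and 13835 to 17085 CPM in Adv-NC libraries. Of 8 endothelial markers 7 were higher and 0 lower, with sums of 444 to 502 CPM in Adv-ABHD11 and 228 to 262 CPM in Adv-NC libraries. Of 8 smooth muscle and pericyte markers 5 were higher and 1 lower (4431 to 4914 CPM with Adv-ABHD11, 3312 to 3812 CPM with Adv-NC), and of 6 epicardial markers 1 was higher and 5 lower (99.2 to 106 CPM with Adv-ABHD11, 180.5 to 199 CPM with Adv-NC). Of 8 leukocyte markers, 6 of them tested, 2 were higher and 2 lower (62.9 to 67.7 CPM with Adv-ABHD11, 63.7 to 81.7 CPM with Adv-NC, Cd3e at 0 in every Adv-NC library). The 6 lung epithelial markers summed to 124 to 134 CPM with Adv-ABHD11 and to 0.054 to 0.565 CPM with Adv-NC, and Scgb1a1, Sftpc, Sftpa1 and Sftpd were at 0 in every Adv-NC library. The 6 red cell markers summed to 22.82 to 25.99 CPM with Adv-ABHD11 and to 0.313 to 0.648 CPM with Adv-NC, and Hba-a1, Alas2 and Slc4a1 were at 0 in every Adv-NC library. A difference between the groups in the tissue taken and the difference in virus cannot be told apart here, and this holds for every fold given for the 41 genes. The part of these cell type differences in the values of the cycle genes was not tested.

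The G1/S and replication genes fell almost as a block in the Adv-ABHD11 libraries, whereas most G2/M genes did not pass the test. Of the 41 genes 29 passed the test (adjusted p under 0.05 over 12790 genes), against 59.3% of all tested genes. Of the 25 G1/S and replication genes 21 were lower, 1 was higher and 3 did not pass. Among all tested genes 29.5% were lower and 29.9% higher, and the share of lower genes in this set was 84.0%. Of the 16 G2/M genes 5 were higher (31.2%, near the background) and 2 lower (12.5%). Without Adv-ABHD11 replicate 3, and likewise without Adv-NC replicate 3, 3 G2/M genes were higher and 1 lower. The median log2 fold change was -0.86 for the G1/S and replication genes, 0.17 for the G2/M genes and 0.02 for all tested genes. The groups did not overlap, with Adv-ABHD11 lower, for 20 of the 25 and 2 of the 16, against 31.7% of all genes, and with Adv-ABHD11 higher for 1 and 6, against 31.5%. In bulk RNA, fewer cells with a transcript and less of it per cell cannot be told apart.

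**Figure D1:**
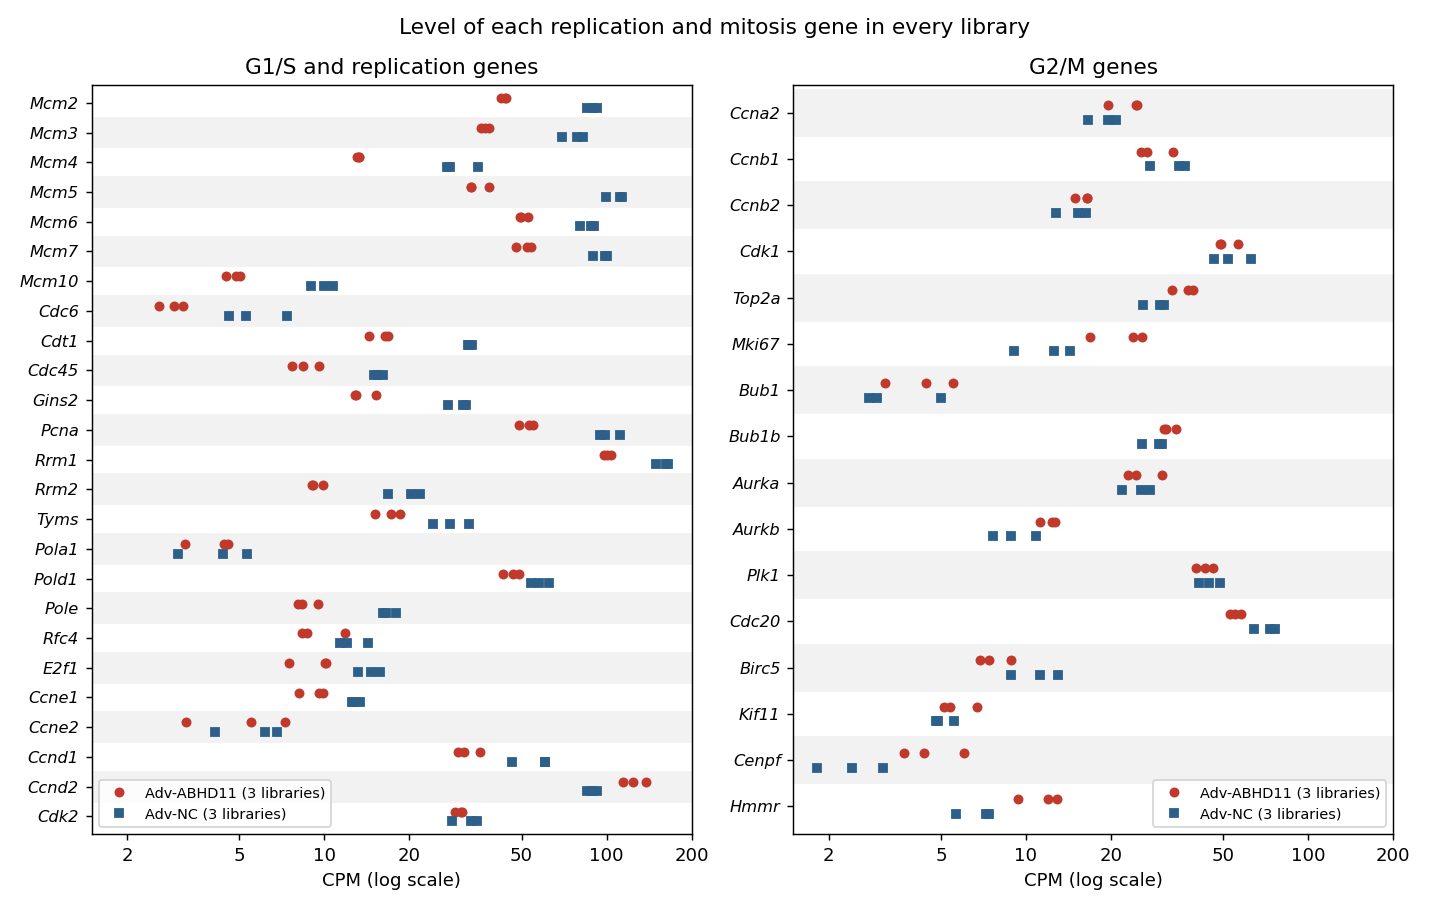
CPM on a log axis for every member in each of the 3 Adv-ABHD11 (circles) and 3 Adv-NC libraries (squares), with the 25 G1/S and replication genes on the left and the 16 G2/M genes on the right. In the left panel the circles lie to the left of the squares for 20 genes and to the right for Ccnd2. In the right panel the values of the groups do not overlap for 8 of the 16 genes. Circles lie to the right for 6 (background 31.5% of all tested genes) and to the left for 2 (background 31.7%). For Birc5, which is among these 2, the nearest circle and square (8.847 and 8.849 CPM) are almost level.

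Summed over the 25 G1/S and replication genes, the level was 718.4, 749.6 and 739.1 CPM in the Adv-ABHD11 libraries and 1111, 1243 and 1218 CPM in the Adv-NC libraries. The G2/M sum was 363.2, 394.1 and 381.4 CPM with Adv-ABHD11 and 339.1, 391.7 and 376.2 CPM with Adv-NC. The G2/M sum was thus 0.506, 0.526 and 0.516 of the G1/S sum in the Adv-ABHD11 libraries, against 0.305, 0.315 and 0.309 in the Adv-NC libraries. The libraries of a group lay close together in this ratio and the groups were far apart, although the G2/M sums themselves overlapped. These sums weight each gene by its level and carry no test.

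The 6 genes of the MCM helicase all fell (100%, against 29.5% lower among all tested genes). Their summed level was 230 ± 7.72 CPM with Adv-ABHD11 and 487 ± 24.1 CPM with Adv-NC (mean ± SD, n = 3 each). Mcm5 (ENSMUSG00000005410.6, chromosome 8, 75109569 to 75128439, plus strand, GRCm38) was at 33.0, 38.2 and 33.0 CPM in the Adv-ABHD11 libraries and at 99.9, 113.6 and 111.8 CPM in the Adv-NC libraries. It was 3.12-fold lower, with a log2 fold change of -1.64 (SE 0.097, adjusted p = 1.19e-10 in edgeR), the lowest value among the 41 genes. Mcm4 was at 13.04, 13.33 and 13.33 CPM with Adv-ABHD11 and at 35.1, 27.1 and 27.8 CPM with Adv-NC, a log2 fold change of -1.18 (SE 0.122, adjusted p = 2.07e-07). Mcm2 stood at 42.2, 43.6 and 44.1 CPM with Adv-ABHD11 and at 85.0, 89.8 and 92.7 CPM with Adv-NC, a log2 fold change of -1.04 (SE 0.087, adjusted p = 1.37e-08). Mcm3 was 2.07-fold, Mcm7 1.88-fold and Mcm6 1.70-fold lower (edgeR, adjusted p at or below 8.31e-07). For none of the 6 did the groups overlap (background 31.7% of all tested genes without overlap and lower). The smallest fold of the helicase genes, that of Mcm6, came from 49.7, 52.9 and 49.5 CPM with Adv-ABHD11 and 80.6, 90.2 and 87.9 CPM with Adv-NC.

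The proteins form a ring with each subunit present once, so their transcript levels are compared here per kilobase of the longest protein-coding transcript. With Adv-ABHD11 the 6 genes ran from 3.69 CPM per kb for Mcm4 to 17.3 for Mcm7, and with Adv-NC from 8.36 for Mcm4 to 32.6 for Mcm7. Mcm5 stood at 10.3 CPM per kb with Adv-ABHD11, below Mcm2 (12.85), Mcm3 (12.2) and Mcm6 (11.6). With Adv-NC it stood at 32.1, above Mcm2 (26.45), Mcm3 (25.3) and Mcm6 (19.8). These are group means of a level, and their order depends on the transcript chosen for the length. Exons of Ap4m1 and Cops6 overlap Mcm7 on the opposite strand.

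The genes of origin licensing and firing fell by about the same amount. All 5 were lower (100%, background 29.5%), with a median log2 fold change of -1.05. Their sum was 45.8 ± 0.72 CPM with Adv-ABHD11 and 94.1 ± 4.15 CPM with Adv-NC. Cdt1, which loads the MCM ring, was at 16.8, 14.4 and 16.4 CPM with Adv-ABHD11 and at 32.6, 32.2 and 33.5 CPM with Adv-NC (log2 fold change -1.05, SE 0.107, adjusted p = 1.86e-07 in edgeR). Its partner Cdc6 was at 2.93, 2.60 and 3.15 CPM with Adv-ABHD11 and at 4.59, 5.27 and 7.39 CPM with Adv-NC (-0.99, SE 0.216, adjusted p = 0.000745). The groups of both loaders were separate, though the Adv-NC libraries differed more among themselves for Cdc6. Gins2, a GINS subunit, was at 12.98, 15.21 and 12.84 CPM with Adv-ABHD11 and at 27.5, 31.1 and 31.8 CPM with Adv-NC, a log2 fold change of -1.14 (SE 0.116, adjusted p = 1.71e-07). Its counts were fractional in all 6 libraries, as happens where reads are divided between genes, and exons of Gse1 overlap it on the opposite strand. Mcm10, which helps to start the helicase, was 2.07-fold and Cdc45 1.81-fold lower.

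Among polymerase and clamp genes 4 of 5 were lower (80.0%, background 29.5%). Pcna, the sliding clamp, was at 48.9, 54.9 and 53.1 CPM with Adv-ABHD11 and at 94.5, 111.7 and 98.5 CPM with Adv-NC (log2 fold change -0.96, SE 0.094, adjusted p = 1.06e-07 in edgeR). Per kilobase it had the highest level of the 41 genes, 34.45 CPM per kb with Adv-ABHD11 and 66.9 with Adv-NC. Pole, the catalytic subunit of the leading-strand polymerase epsilon, stood at 8.37, 8.07 and 9.49 CPM with Adv-ABHD11 and at 16.1, 16.5 and 18.0 CPM with Adv-NC (-0.96, SE 0.133, adjusted p = 6.75e-06). Neither gene's groups overlapped. Pold1, the catalytic subunit of polymerase delta, was 1.25-fold lower (log2 fold change -0.33, adjusted p = 0.0065), a call that ended after removal of length and GC trends (-0.12, adjusted p = 0.212). Rfc4, of the clamp loader, was at 8.31, 11.8 and 8.71 CPM with Adv-ABHD11 and at 11.4, 14.3 and 12.1 CPM with Adv-NC, with overlapping groups. Its log2 fold change of -0.39 (SE 0.158, adjusted p = 0.0423) no longer passed in 6 of the 13 alternative settings, among them 4 that left out a library: Adv-ABHD11 replicate 1 or 3 (adjusted p = 0.157 and 0.144) and Adv-NC replicate 2 or 3 (0.156 and 0.0652). Pola1, the catalytic subunit of the polymerase that makes primers with primase, was at 4.42, 3.21 and 4.57 CPM with Adv-ABHD11 and at 4.37, 5.32 and 3.03 CPM with Adv-NC and did not pass (log2 fold change -0.06, SE 0.228, adjusted p = 0.845).

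The 3 genes of deoxynucleotide supply fell (100%, background 29.5%). Rrm1, the large subunit of ribonucleotide reductase, was at 98.18, 103.3 and 99.99 CPM with Adv-ABHD11 and at 149.1, 165.1 and 162.0 CPM with Adv-NC (log2 fold change -0.66, SE 0.085, adjusted p = 2.95e-06 in edgeR). Rrm2, the small subunit, which is the one regulated over the cell cycle, was at 9.03, 9.12 and 9.89 CPM with Adv-ABHD11 and at 16.8, 20.2 and 21.8 CPM with Adv-NC (-1.07, SE 0.134, adjusted p = 2.4e-06). Tyms, thymidylate synthase, was 1.66-fold lower (adjusted p = 7.29e-05). No groups overlapped for these 3 genes (background 31.7% of all tested genes without overlap and lower). Tyms had fractional counts in 4 libraries, and a pseudogene carries its name in the annotation, as is the case for Pcna, Ccnb1 and Ccnb2.

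The regulators of G1/S were the only subset of the replication genes whose members moved in both directions. E2f1, an activating E2F factor, was at 10.1, 10.2 and 7.53 CPM with Adv-ABHD11 and at 13.2, 14.7 and 15.8 CPM with Adv-NC, a log2 fold change of -0.66 (SE 0.148, adjusted p = 0.000969 in edgeR). Ccne1, a cyclin E gene, was 1.40-fold lower (adjusted p = 0.00535). Its paralogue Ccne2 was at 3.23, 7.24 and 5.51 CPM with Adv-ABHD11 and at 6.15, 6.78 and 4.11 CPM with Adv-NC and did not pass (-0.08, adjusted p = 0.784), and neither did Cdk2, the partner of cyclin E, at 30.8, 29.0 and 30.5 CPM with Adv-ABHD11 and 28.3, 34.7 and 33.2 CPM with Adv-NC (-0.09, adjusted p = 0.46). Both genes overlapped between the groups.

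The D-type cyclins split. Ccnd1 was at 31.4, 35.7 and 29.8 CPM in the Adv-ABHD11 libraries and at 46.1, 60.4 and 60.6 CPM in the Adv-NC libraries, a log2 fold change of -0.79 (SE 0.115, adjusted p = 1.39e-05 in edgeR). Ccnd2 (ENSMUSG00000000184.12, chromosome 6, 127125162 to 127152193, minus strand) was at 124.6, 114.2 and 138.3 CPM with Adv-ABHD11 and at 85.1, 92.8 and 88.9 CPM with Adv-NC, a log2 fold change of 0.50 (SE 0.091, adjusted p = 0.000143). It was the single G1/S and replication gene that rose, and it remained higher after removal of length and GC trends (0.34, adjusted p = 0.000651). Per kilobase, Ccnd2 stood at 19.85 and Ccnd1 at 8.64 CPM per kb with Adv-ABHD11, while with Adv-NC they stood at 14.05 and 14.89. Ccnd3, which is not one of the 41 genes, was at 277, 260 and 244 CPM with Adv-ABHD11 and at 126, 149 and 141 CPM with Adv-NC, a log2 fold change of 0.91 (SE 0.091, adjusted p = 1.47e-07). Ccnd1 and Ccnd3 had fractional counts in all 6 libraries, and exons of other genes overlap Ccnd1 and Ccnd2 on the opposite strand.

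**Figure D2:**
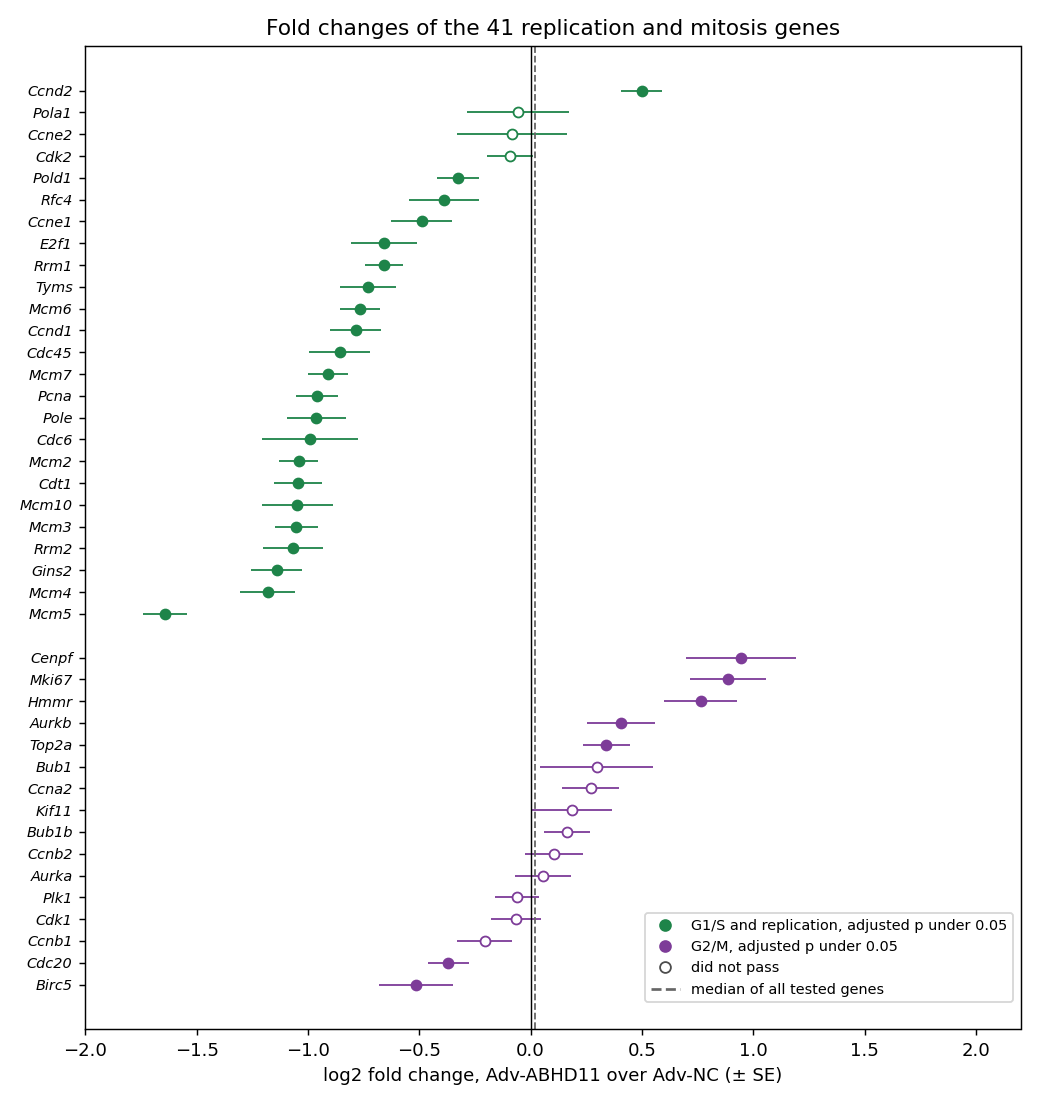
Log2 fold change of Adv-ABHD11 over Adv-NC with its standard error for the 41 genes, ordered within each set. Filled points passed an adjusted p under 0.05, and the dashed line is the median of all tested genes. Of the G1/S and replication genes 21 lie to the left of 0 and passed, while the G2/M genes spread from -0.52 to 0.95.

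In the G2/M set, none of the 4 genes of mitotic cyclins and Cdk1 passed the test. Cdk1, the kinase that drives entry into mitosis, was at 49.0, 56.2 and 48.7 CPM with Adv-ABHD11 and at 46.2, 62.9 and 51.9 CPM with Adv-NC (log2 fold change -0.07, SE 0.111, adjusted p = 0.627 in edgeR). Ccnb1, its cyclin B partner, was at 25.6, 33.2 and 26.9 CPM with Adv-ABHD11 and at 27.6, 34.8 and 36.5 CPM with Adv-NC (-0.21, SE 0.125, adjusted p = 0.163). The groups overlapped for both. Ccnb2 was at 14.9, 16.4 and 16.5 CPM with Adv-ABHD11 and at 12.8, 15.3 and 16.3 CPM with Adv-NC (0.11, adjusted p = 0.497). Ccna2, cyclin A of S and G2 phase, was at 19.5, 24.7 and 24.5 CPM with Adv-ABHD11 and at 16.6, 20.8 and 19.6 CPM with Adv-NC (0.27, SE 0.126, adjusted p = 0.0743). Its counts were fractional in all 6 libraries, and exons of Exosc9 overlap it on the opposite strand. The call of Ccna2 depended on the setting: it was higher with upper-quartile scaling (adjusted p = 0.0163), library size only (0.0447), the replicate block (0.0354) and without Adv-ABHD11 replicate 1 (0.0235). Ccnb1 was lower without Adv-ABHD11 replicate 2 (adjusted p = 0.032), without Adv-NC replicate 1 (0.0324) and after removal of length and GC trends (0.0211).

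Of the 7 mitotic kinase and checkpoint genes 1 was higher (14.3%, background 29.9%), 2 were lower (28.6%, background 29.5%) and 4 did not pass. Cdc20 (ENSMUSG00000006398.15, chromosome 4, 118432901 to 118437352, minus strand) was at 57.8, 55.2 and 52.8 CPM with Adv-ABHD11 and at 64.5, 73.3 and 76.1 CPM with Adv-NC, a log2 fold change of -0.37 (SE 0.093, adjusted p = 0.00235 in edgeR). Birc5 (survivin), a subunit of the chromosomal passenger complex, was at 7.415, 8.847 and 6.886 CPM with Adv-ABHD11 and at 8.849, 11.21 and 12.98 CPM with Adv-NC (-0.52, SE 0.166, adjusted p = 0.0127). The highest Adv-ABHD11 and the lowest Adv-NC library were almost level, and the call ended without Adv-ABHD11 replicate 3 (adjusted p = 0.0616) and without Adv-NC replicate 3 (0.0885). Aurkb, the kinase of the same complex, was at 11.2, 12.7 and 12.4 CPM with Adv-ABHD11 and at 7.66, 10.9 and 8.83 CPM with Adv-NC (0.41, SE 0.152, adjusted p = 0.0281). That rise no longer passed when any of 4 libraries was left out, Adv-ABHD11 replicate 2 or 3 (adjusted p = 0.0621 and 0.0806) or Adv-NC replicate 1 or 3 (0.0972 and 0.0835). Aurka and Plk1, kinases of centrosome and spindle, did not pass: Aurka was at 24.52, 30.47 and 22.97 CPM with Adv-ABHD11 and at 21.85, 27.53 and 25.56 CPM with Adv-NC, and Plk1 at 43.05, 46.00 and 39.89 CPM with Adv-ABHD11 and at 41.17, 48.70 and 44.50 CPM with Adv-NC (adjusted p = 0.72 and 0.62). The checkpoint genes did not pass either: Bub1 was at 3.17, 4.42 and 5.51 CPM with Adv-ABHD11 and at 5.02, 2.97 and 2.77 CPM with Adv-NC, and Bub1b at 31.3, 30.7 and 33.9 CPM with Adv-ABHD11 and at 25.9, 30.2 and 29.6 CPM with Adv-NC (adjusted p = 0.327 and 0.182). The groups of Bub1b did not overlap, those of Aurka, Plk1 and Bub1 did. Without Adv-NC replicate 1, Bub1 was higher at 0.62 (adjusted p = 0.0428), and with upper-quartile scaling Bub1b was higher at 0.27 (adjusted p = 0.0297).

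Among the chromosome and spindle genes 4 of 5 were higher (80.0%, background 29.9%). They are a small subset of the G2/M genes, of which 31.2% were higher, and of 57 other mitosis genes described below 21.1% were higher. The subset also holds long transcripts, from 3892 nucleotides for Hmmr to 11130 for Cenpf, against a median of 3377 for the G2/M set. Mki67 (ENSMUSG00000031004.8, chromosome 7, 135689784 to 135716361, minus strand), which encodes the proliferation marker Ki-67 of the mitotic chromosome surface, was at 23.9, 16.8 and 25.8 CPM in the Adv-ABHD11 libraries and at 14.35, 9.07 and 12.6 CPM in the Adv-NC libraries. Its log2 fold change was 0.89 (SE 0.17, adjusted p = 0.000228 in edgeR). Cenpf, a large kinetochore protein, was at 4.36, 3.71 and 6.05 CPM with Adv-ABHD11 and at 3.13, 1.83 and 2.41 CPM with Adv-NC (0.94, SE 0.247, adjusted p = 0.00319). Hmmr, a spindle protein that also binds hyaluronan, was at 9.388, 12 and 12.94 CPM with Adv-ABHD11 and at 7.23, 7.40 and 5.65 CPM with Adv-NC (0.76, SE 0.165, adjusted p = 0.000688). None of these 3 genes overlapped between the groups (background 31.5% of all tested genes without overlap and higher). Replicates of a group differed widely for Mki67 and Cenpf. Top2a was at 33.0, 37.4 and 38.9 CPM with Adv-ABHD11 and at 30.8, 29.8 and 26.0 CPM with Adv-NC (0.34, SE 0.106, adjusted p = 0.0109). Its call ended without Adv-ABHD11 replicate 3 (adjusted p = 0.0677), without Adv-NC replicate 3 (0.0758) and after removal of length and GC trends (0.12, adjusted p = 0.238). Kif11, the motor that pushes spindle poles apart, did not pass at 5.142, 5.364 and 6.738 CPM with Adv-ABHD11 and 5.558, 4.797 and 4.876 CPM with Adv-NC (adjusted p = 0.393).

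Transcript length moved with the values of the 16 G2/M genes, but hardly with those of a wider mitosis list. Over the 16 G2/M genes the log2 fold change and the length of the longest protein-coding transcript had a Spearman correlation of 0.57. Over the 25 G1/S and replication genes the correlation was -0.02. In the wider lists described below it was 0.09 over 57 other mitosis genes and -0.04 over 44 other replication genes. All these values are across genes that share the same 6 libraries. The longest transcripts of the G2/M set were Cenpf at 11130 and Mki67 at 10061 nucleotides, both higher. The median length was 5221 nucleotides for the higher and 2563 for the lower G2/M genes. Among short transcripts, Cdc20 (1793 nucleotides) was lower and Aurkb (1950 nucleotides) higher, a rise that depended on the libraries kept. Ccnb2 (1531) and Aurka (1905) did not pass at log2 fold changes of 0.11 and 0.06. Over all tested genes with a length (12535) the median log2 fold change ran from -0.046 and -0.048 in the shortest 2 of 5 bins of equal size to 0.144 in the longest. With each library's trend on length and GC content removed (this setting was added after the data had been seen), the log2 fold changes were 0.65 for Mki67, 0.62 for Cenpf, 0.54 for Hmmr and 0.49 for Aurkb, all still higher (edgeR adjusted p at or below 0.013). The G1/S and replication genes were then 21 lower and 1 higher, with a median of -0.83. The lower genes were not all the same, since Pold1 no longer passed and Ccne2 became lower (-0.46, adjusted p = 0.0388). The G2/M genes were 4 higher and 3 lower at a median log2 value of 0.11.

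**Figure D3:**
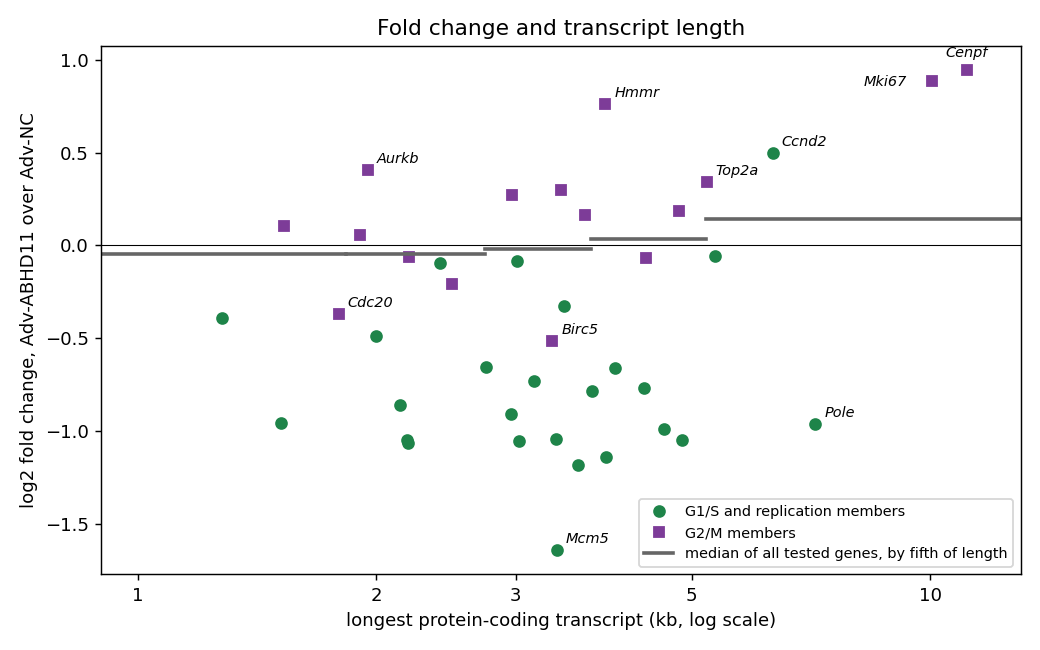
Log2 fold change of Adv-ABHD11 over Adv-NC against the longest protein-coding transcript in kilobases (log axis) for the G1/S and replication genes (circles) and the G2/M genes (squares). Bars give the median of all tested genes in each of 5 bins of length, from -0.048 to 0.144. Most circles lie below 0 at every length, and the squares of Mki67 and Cenpf stand highest at the right.

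Wider lists of the same pathways, none of them overlapping with the 41 genes, were described in the same fit. Of 44 other replication genes 19 were lower (43.2%, background 29.5%), 5 were higher (11.4%, background 29.9%) and 20 did not pass. Their median log2 fold change was -0.28. Chaf1b, a subunit of the chromatin assembly factor at the replication fork, was at 9.57, 11.9 and 8.41 CPM with Adv-ABHD11 and at 30.6, 30.8 and 30.4 CPM with Adv-NC (-1.62, SE 0.129, adjusted p = 6.82e-09 in edgeR). The DNA ligase of lagging-strand synthesis Lig1 was 1.81-fold lower and Uhrf1, which guides DNA methylation to new strands, 1.79-fold lower. In the other direction Gmnn, the inhibitor of CDT1, was at 8.730, 12 and 10.03 CPM with Adv-ABHD11 and at 5.18, 4.38 and 5.24 CPM with Adv-NC (1.06, SE 0.169, adjusted p = 3.49e-05). It is named here because it opposes a member that fell, a choice made after its values were seen.

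Of 57 other mitosis genes 12 were higher (21.1%, background 29.9%), 9 lower (15.8%, background 29.5%) and 36 did not pass. Their median log2 fold change was 0.04. Mybl2, which encodes B-MYB, was at 7.12, 8.29 and 8.75 CPM with Adv-ABHD11 and at 16.03, 16.84 and 18.68 CPM with Adv-NC (-1.09, SE 0.137, adjusted p = 2.4e-06 in edgeR). Aspm, a spindle pole protein, was at 4.01, 3.59 and 5.02 CPM with Adv-ABHD11 and at 1.73, 1.46 and 1.18 CPM with Adv-NC (1.53, SE 0.25, adjusted p = 4.27e-05). Its transcript is long (9867 nucleotides), and its counts were low, at 67, 65 and 102 with Adv-ABHD11 and 32, 28 and 23 with Adv-NC. The condensin subunit Smc4 was 1.75-fold higher and Cdca5 (sororin), which holds sister chromatids together, 1.90-fold lower. The number of lower genes in this list was 5 with upper-quartile scaling, 5 without Adv-NC replicate 3 and 14 after removal of length and GC trends, and the number of higher genes was 7 without Adv-NC replicate 2.

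**Figure D4:**
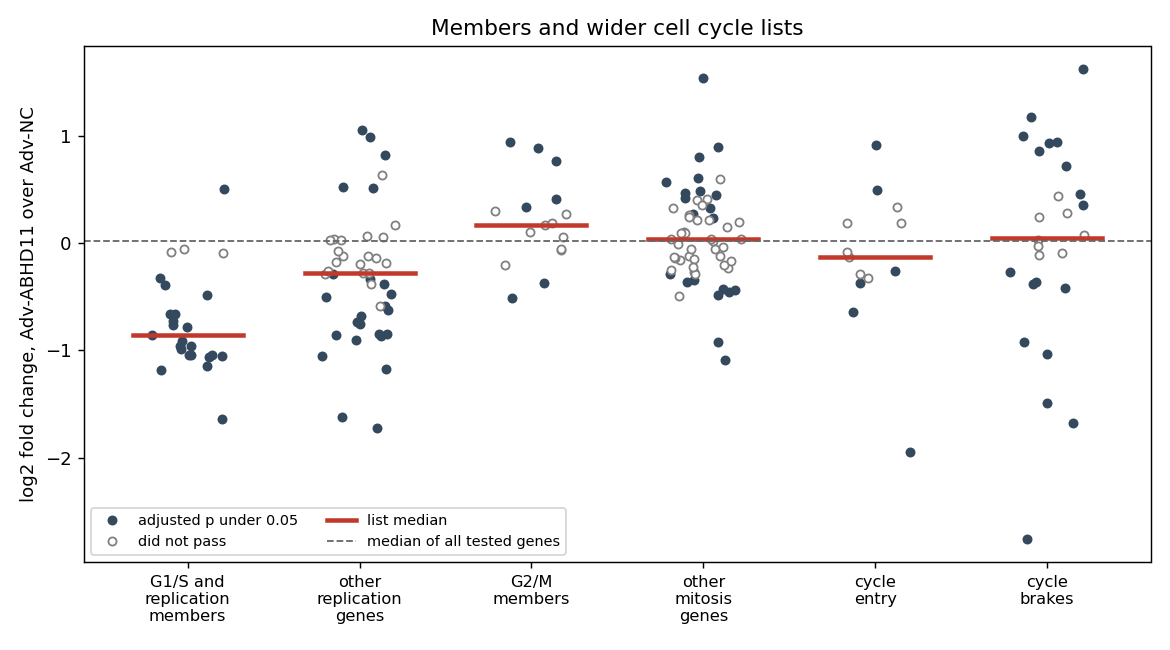
Log2 fold change of Adv-ABHD11 over Adv-NC for each gene of the member sets and the wider lists, with filled points past an adjusted p of 0.05, red bars at list medians and the dashed line at the median of all tested genes (0.02). The bars of both replication lists lie below the line, at -0.86 and -0.28, and those of the mitosis lists at 0.17 and 0.04.

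Genes that start or hold back the cycle were counted in 2 further lists. Of 13 genes of cycle entry 2 were higher (15.4%, background 29.9%), 4 lower (30.8%, background 29.5%) and 7 did not pass, and 7 were lower after removal of length and GC trends. Myc, a growth-promoting transcription factor, was at 39.40, 31.96 and 33.15 CPM in the Adv-ABHD11 libraries and at 126.7, 129.0 and 146.6 CPM in the Adv-NC libraries (-1.95, SE 0.102, adjusted p = 2.79e-11 in edgeR). Cdk4, the kinase of the D-type cyclins, was at 221, 257 and 215.5 CPM with Adv-ABHD11 and at 330.4, 373 and 377 CPM with Adv-NC (-0.64, SE 0.095, adjusted p = 1.57e-05). Its counts were fractional in 5 libraries. Tfdp2, a dimerization partner of E2F factors, was 1.41-fold higher. Of 26 brakes of the cycle 9 were higher, 9 lower and 8 did not pass (34.6% in each direction, background 29.9% higher and 29.5% lower).

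The inhibitors of the cyclin-dependent kinases differed from each other. Cdkn2d, the INK4 inhibitor p19, was at 40.96, 41.86 and 42.59 CPM with Adv-ABHD11 and at 12.14, 15.96 and 12.78 CPM with Adv-NC (1.62, SE 0.116, adjusted p = 1.74e-09 in edgeR). Cdkn2b, the INK4 inhibitor p15, was at 5.80, 3.59 and 4.82 CPM with Adv-ABHD11 and at 14.95, 14.65 and 15.76 CPM with Adv-NC (-1.68, SE 0.166, adjusted p = 1.21e-07). The 2 relatives thus moved apart with no overlap in either. Chosen after their values were seen, Cdkn1b (p27) was 2.00-fold and Cdkn2c (p18) 1.81-fold higher, and Cdkn1a (p21) was at 627, 629.5 and 576 CPM with Adv-ABHD11 and at 788.0, 798 and 859 CPM with Adv-NC (-0.42, adjusted p = 0.000658). Of the other Cdkn genes listed, Cdkn2a was lower (-2.75, SE 0.626, adjusted p = 0.00105). It had only 2, 0 and 4 counts with Adv-ABHD11 and 13, 17 and 14 with Adv-NC. Cdkn1c did not pass (0.24, adjusted p = 0.127). Pkmyt1, a kinase that holds Cdk1 inactive, was 2.81-fold and the antiproliferative gene Btg2 2.05-fold lower.

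**Figure D5:**
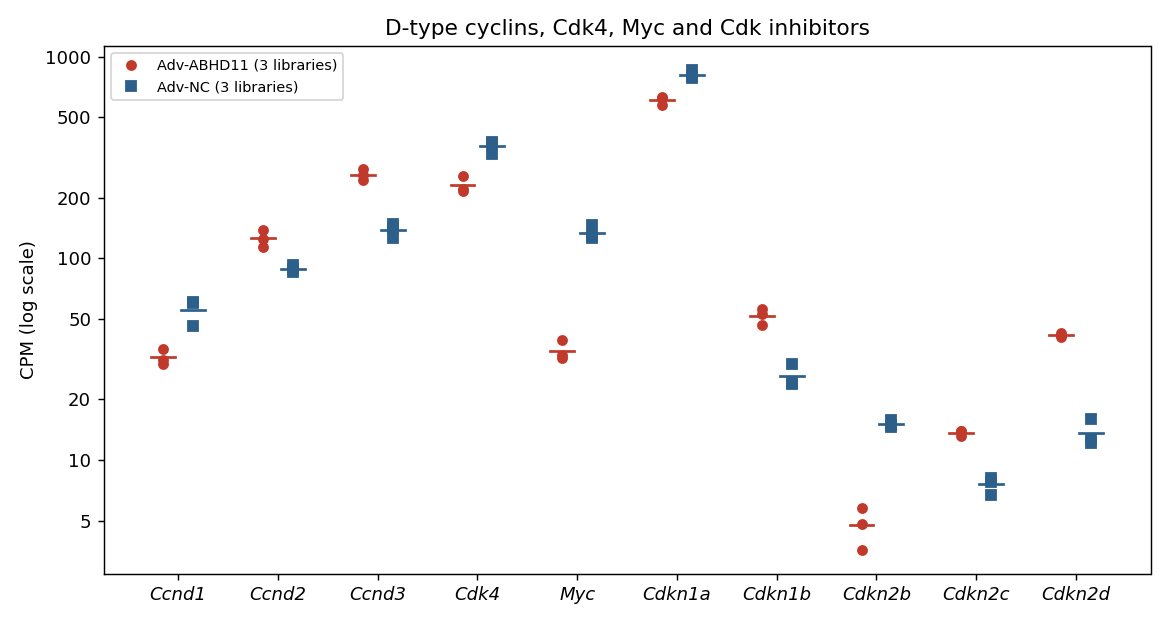
CPM on a log axis in each of 3 Adv-ABHD11 (circles, left of each pair) and 3 Adv-NC libraries (squares, right) for the D-type cyclins, Cdk4, Myc and inhibitors of the cyclin-dependent kinases, with lines at the group means. Ccnd1, Cdk4, Myc, Cdkn1a and Cdkn2b lie lower in the Adv-ABHD11 libraries, and Ccnd2, Ccnd3, Cdkn1b, Cdkn2c and Cdkn2d higher. The inhibitor genes Cdkn2a and Cdkn1c are not drawn.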

How the data were processed

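The deposited values are the authors' expected counts, 1 file a library with 1 value per gene symbol, not scaled to library size, per the file headers and values. Trimmomatic 0.39, HISAT2, RSEM, DESeq2 and the build mm10 are named in the submitters' processing notes, without their roles; read filters, annotation and strandedness: not given in the sources used here. Without known strandedness, reads of 12 members overlapped by exons on the opposite strand cannot be told apart from those of the other gene, and 5 members had a fractional count in at least 1 library. A repeated symbol (22 rows) kept its row with the most counts, and counts were rounded.

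The test was that of edgeR 4.0.16 (R 4.3.3), with filterByExpr (minimum count 10, minimum total 15), TMM scaling, quasi-likelihood F test, Benjamini-Hochberg adjustment over 12790 genes, threshold 0.05. SE is the size of the log2 fold change divided by the square root of F, and CPM uses TMM-scaled totals. The procedure was tested on simulated data in which only a small share of genes changed. In the real data 59.3% of tested genes passed, a setting that the simulation did not cover. One count was worth 0.0492 to 0.0598 CPM, and the lowest count of a member in any library was 35. Alternatives were other scalings, no filter, DESeq2 1.42.0, a replicate block, leaving out each library and removal of length and GC trends (loess; the last chosen after seeing the data). Lengths come from GENCODE M21 (GRCm38), start regions from RefSeq (GRCm38.p6). The members and lists were chosen with earlier results of these data known. All 41 members were named or counted, with the 4 genes of smallest adjusted p from each wider list, of which 1 is not reported here; other choices are stated where made.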

Additional observations from a re-analysis of the deposited data

How the results depend on the processing

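The count of lower G1/S and replication genes was 20 or 21 in all 13 alternatives, and 1 gene of that set, Ccnd2, was higher in each. Upper-quartile scaling moved the median of all genes from 0.016 to 0.124, and the median of the G1/S and replication genes was then -0.75. Of 29 members called, 24 kept their call in every alternative; the others were Pold1, Rfc4, Top2a, Aurkb and Birc5. Leaving out 1 library gave 3 to 6 higher and 1 to 3 lower G2/M genes, 3 and 1 both without Adv-ABHD11 replicate 3 and without Adv-NC replicate 3. It gave 7 to 10 higher and 5 to 9 lower genes among the other mitosis genes, of which 5 were lower with upper-quartile scaling. After removal of length and GC trends 14 other mitosis genes and 7 cycle entry genes were lower, and Ccne2 was lower at -0.46 (adjusted p = 0.0388). The sign turned in members that did not pass. With upper-quartile scaling Pola1 was at 0.049, Ccne2 at 0.019, Cdk2 at 0.015, Cdk1 at 0.041 and Plk1 at 0.047. Without Adv-ABHD11 replicate 2, Pola1 was at 0.096 and Aurka at -0.065. Without Adv-NC replicate 2, Pola1 was at 0.125, Ccne2 at 0.044 and Cdk1 at 0.05. Ccne2 was at 0.165 without Adv-ABHD11 replicate 1, and Aurka at -0.021 without Adv-NC replicate 1. Over the settings that left out 1 library, Pola1 ran from -0.253 to 0.125, Ccne2 from -0.356 to 0.165, Cdk1 from -0.151 to 0.05 and Aurka from -0.065 to 0.134. With length and GC trends removed Plk1 was at 0.084 and Kif11 at -0.057. The cause of these shifts was not tested.

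The deviations of same-numbered libraries from their group means had correlations of 0.01, 0.204 and -0.104, not all over 0.1, and the numbers were not taken as pairs. With the replicate block 21 G1/S and replication genes were lower and 1 higher, 6 G2/M genes were higher and 2 lower, and Ccna2 was the member whose call changed.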
